A study of Mus musculus with 8 samples.

Results

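The apelin system was described here through its receptor gene, Aplnr, and the genes of its peptide ligands, Apela and Apln. The members were all probe sets whose platform annotation was exactly 1 of these symbols, which gave 3 genes of the 17097 named on the array and 5 probe sets, of which 2 were for Aplnr, 2 for Apela and 1 for Apln. The set was selected on measured values, since Aplnr had already been seen to differ between GFP+ and GFP- cells at E6.5 on these arrays, so the values of all 3 genes are given as a description with no test.

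Aplnr encodes a class A G protein-coupled receptor that signals through inhibitory G proteins and arrestins. Its ligands are small secreted peptides: Apela, also called Elabela or Toddler, acts in the early embryo, and apelin, the product of Apln, is best known from blood vessels and the heart. In zebrafish, Toddler and the receptor are needed for mesendodermal cells to move inward and towards the animal pole during gastrulation, and both fish and mice that lack the receptor have heart defects.

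The data came from 8 Affymetrix arrays of amplified RNA, each from 50 living cells sorted from gastrulating mouse embryos. All embryos carried the Mesp1-rtTA and TetO-H2B-GFP transgenes, so that nuclear GFP reports the activity of a Mesp1-driven transactivator. Mesp1 is a transcription factor gene switched on in the first mesoderm cells, among them the progenitors of the heart. The groups were GFP+ cells at embryonic day (E) 7.5, GFP- cells at E7.5, GFP+ cells at E6.5 and GFP- cells at E6.5, with 2 arrays each, numbered as biological replicates 1 and 2. GFP- cells are all living cells of the embryo without the reporter signal, not 1 cell type, and in such a mixture fewer cells of a type and less RNA per cell cannot be told apart.

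The values were RMA values on the log2 scale. Array medians were 4.20 to 4.23 for replicate 1 and 4.54 to 4.59 for replicate 2, so the members' differences are also given within each replicate number. The SEs come from a fit without a replicate block and include this offset. The median of all deposited values, 4.38, served as a filter value, and the size of a difference is uncertain where a group lay below it. The number of arrays limits the precision. Mesp1 itself, the check of the sort, read 8.75 and 8.65 in GFP+ cells at E7.5, against 7.76 and 8.06 in GFP- cells at E7.5. At E6.5 it read 9.75 and 10.03 in GFP+ cells, against 5.64 and 6.26 in GFP- cells. The fractions therefore stood much closer in Mesp1 at the later stage, by 0.79 (SE 0.33), than at the earlier one, by 3.94 (SE 0.33).

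Promoter sequences of the ligand genes are shown because Apela and Apln, ligands of 1 receptor, had their highest means in different groups. How high each lay there depended on 1 array, as given below. Whether the sequences bear on these values was not tested. RefSeq's table for the mouse build GRCm38.p6 gave the 250 bases before the gene start for 2 of the 3 members, Apela (chr8:65037337-65037586, minus strand) and Apln (chrX:48034854-48035103, minus strand). Capitals mark E-boxes (CANNTG), the motif class that Mesp1 and related factors can bind.
Apela: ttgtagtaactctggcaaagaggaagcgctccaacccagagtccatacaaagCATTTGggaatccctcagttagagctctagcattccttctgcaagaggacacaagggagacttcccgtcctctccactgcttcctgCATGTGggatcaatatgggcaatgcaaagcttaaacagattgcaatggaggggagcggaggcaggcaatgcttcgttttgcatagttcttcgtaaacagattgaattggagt
Apln: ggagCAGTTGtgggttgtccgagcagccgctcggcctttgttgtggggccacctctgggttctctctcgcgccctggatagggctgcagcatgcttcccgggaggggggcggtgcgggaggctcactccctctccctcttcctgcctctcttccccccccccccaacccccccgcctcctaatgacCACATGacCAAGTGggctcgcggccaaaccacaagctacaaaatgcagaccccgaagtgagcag

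The Apela window held 2 E-boxes and the Apln window 3, and 66.2% of 32851 promoter windows of this length held at least 1. The share with 2 or more was not computed. Searches on both strands for a T-box site (GGTGTG, in 16.3% of windows), the E-box CAGCTG (13.0%), a GATA site (AGATAA, 9.99%) and a TCF/LEF site (CTTTGA, 13.8%) found none of these letters in either window. CAGCTG is 1 form of CANNTG, so these searches overlap. The Apln window was richer in G and C (65.2%) than that of Apela (48.0%).

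The receptor gene was high in GFP+ cells at both stages and in GFP- cells at E7.5 and lowest in GFP- cells at E6.5, where 1 of its 2 probe sets lay below the filter value. On that probe set, its brighter one (1438651_PM_a_at), Aplnr read 10.89 and 10.60 in GFP+ cells at E7.5 and 9.86 and 9.58 in GFP- cells at E7.5. At E6.5 it read 8.52 and 8.68 in GFP+ cells, against 3.29 and 3.69 in GFP- cells. No array of 1 group overlapped any array of another, and the order of the means was GFP+ E7.5, GFP- E7.5, GFP+ E6.5, GFP- E6.5. The gaps between neighbours in that order were 1.02, 1.12 and 5.11, each larger than the SD of either group (at most 0.281).

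**Figure D1:**
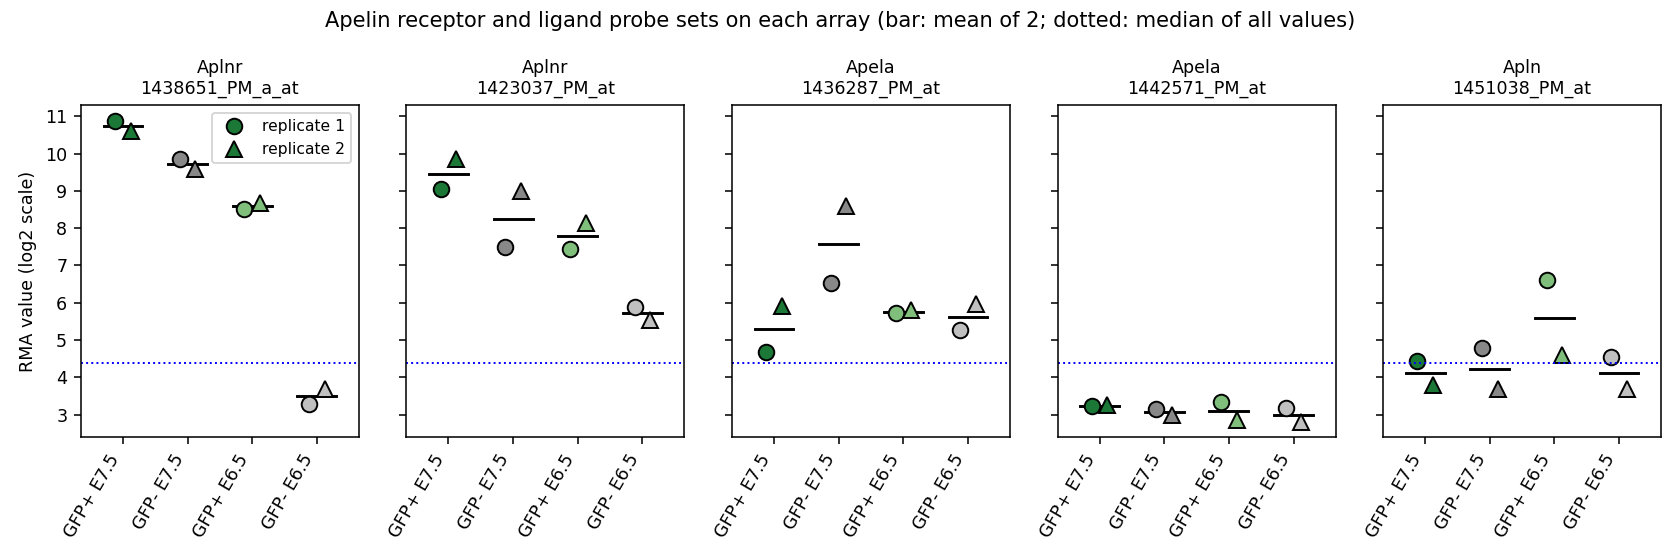
RMA values (log2 scale, y axis) of the 5 probe sets of Aplnr, Apela and Apln on all 8 arrays, by group (x axis). Circles and triangles are replicates 1 and 2, bars are means of 2 arrays and the dotted line is the median of all deposited values, 4.38. On 1438651_PM_a_at, Aplnr lay at 3.29 and 3.69 in GFP- cells at E6.5 and above 8.5 on the other 6 arrays.

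At E7.5, Aplnr averaged 10.74 ± 0.21 in GFP+ cells and 9.72 ± 0.20 in GFP- cells (SD, n = 2 each). The difference was 1.02 (SE 0.27, 2.03-fold), with 1.03 and 1.01 within replicates 1 and 2. Among the 11706 genes kept by the filter it ranked 389th by size. The receptor gene was thus high in both fractions at this stage, and higher in the GFP+ cells on every array.

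At E6.5 the fractions stood much further apart. Aplnr averaged 8.60 ± 0.11 in GFP+ cells and 3.49 ± 0.28 in GFP- cells (SD, n = 2 each), a difference of 5.11 (SE 0.27, 34.5-fold) with 5.23 and 4.99 within the replicates. Of the 11706 genes this was the largest difference towards GFP+ cells and the second largest in either direction, but since the GFP- mean lay below 4.38, its size and place are uncertain. The gap between fractions at E7.5 minus that at E6.5 was -4.09 (SE 0.39, -4.20 and -3.97 within the replicates), the third largest such value in size among the 11706 genes.

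On this probe set the stages differed more in the GFP- cells than in the GFP+ cells. Between E7.5 and E6.5 in GFP- cells, Aplnr differed by 6.23 (SE 0.27, 6.57 and 5.89 within the replicates), the largest difference of all 11706 genes in that comparison, with a size that again rests on the E6.5 mean below 4.38. On the other probe set (1423037_PM_at) the same difference was 2.54 (SE 0.54, 5.8-fold), with 1.62 and 3.45 within the replicates. In GFP+ cells the same stages differed by 2.14 (SE 0.27, 4.42-fold), with 2.37 and 1.92 within the replicates, in place 67, and on the other probe set by 1.66 (SE 0.54), with 1.61 and 1.72. Within replicate 1 the second probe set thus had nearly equal stage differences in GFP- and GFP+ cells, 1.62 and 1.61. On the brighter probe set GFP- cells at E7.5 read higher for the receptor than GFP+ cells at E6.5 did.

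Mesp1 took another course than Aplnr in the reporter-positive cells. Between E7.5 and E6.5 in GFP+ cells, Mesp1 differed by -1.19 (SE 0.33, -1.01 and -1.38 within the replicates), where Aplnr was at 2.14. In GFP- cells Mesp1 was at 1.96 (SE 0.33) between the stages, the same direction as Aplnr. Of 12 listed markers of nascent mesoderm, Mesp1 among them, 11 had a probe set of their own and 10 passed the filter. Between fractions these 10 were between 0.14 (Evx1) and 1.93 (Eomes) at E7.5, and between 0.48 (Fgf8) and 4.54 (Mixl1) at E6.5. With limma 2 of the 10, Mesp1 (adjusted p = 0.0209) and Snai1, a repressor gene of epithelial genes (3.13, SE 0.34, adjusted p = 0.0495), passed at E6.5, where 0.0769% of all genes did. The cells were sorted by a Mesp1-driven reporter, and the list was chosen with earlier results of these data known. These 2 calls are therefore a description. With any 1 of the E6.5 arrays left out no gene passed, and with any 1 of the E7.5 arrays left out 1 gene did. Of these 10 markers, 1, Tbx6, a regulator of paraxial mesoderm, had a positive difference between E7.5 and E6.5 in GFP+ cells (1.82, SE 0.49). In these 10 genes the median between stages was -1.56 in GFP+ cells and 0.84 in GFP- cells, against -0.03 and -0.01 over all genes.

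The second Aplnr probe set (1423037_PM_at) kept the order of the group means, with a smaller difference between fractions at E6.5 and a similar one at E7.5. It read 9.06 and 9.86 in GFP+ cells at E7.5, 7.51 and 8.99 in GFP- cells at E7.5, 7.45 and 8.14 in GFP+ cells at E6.5, and 5.89 and 5.53 in GFP- cells at E6.5. Here GFP- cells at E7.5 and GFP+ cells at E6.5 overlapped across replicate numbers, while within each number the GFP- E7.5 array was the higher, and the GFP- E6.5 arrays lay above 4.38. Its difference between fractions was 1.21 (SE 0.54, 1.56 and 0.87 within the replicates) at E7.5 and 2.08 (SE 0.54, 1.56 and 2.61) at E6.5.

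The narrowing of the gap between fractions was therefore not the same on both Aplnr probe sets. On 1423037_PM_at the difference of differences was -0.87 (SE 0.77), with -0.01 within replicate 1 and -1.74 within replicate 2. Without values for single probes, which reading is nearer the transcript level was not tested.

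Apela, the ligand gene known from gastrulation, was highest in the late GFP- cells. Its brighter probe set (1436287_PM_at) read 4.68 and 5.92 in GFP+ cells at E7.5, against 6.53 and 8.60 in GFP- cells at E7.5. At E6.5 it read 5.73 and 5.79 in GFP+ cells, against 5.28 and 5.96 in GFP- cells. The 2 GFP- E7.5 arrays were above the other 6, which overlapped one another.

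At E7.5, Apela averaged 5.30 ± 0.87 in GFP+ cells and 7.57 ± 1.47 in GFP- cells (SD, n = 2 each), a difference of -2.26 (SE 0.71) with -1.84 and -2.68 within the replicates. This difference was the 11th largest of 11706 genes at E7.5. It rested in good part on 1 array, since without GFP- E7.5 replicate 2 it was -1.23. At E6.5 the fractions differed by 0.14 (SE 0.71), with 0.45 and -0.17 within the replicates, which run in opposite directions.

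Between the stages, Apela in GFP- cells differed by 1.95 (SE 0.71, 1.25 and 2.64 within the replicates), and by 0.91 without GFP- E7.5 replicate 2 or 2.98 without GFP- E7.5 replicate 1. In GFP+ cells the stages differed by -0.46 (SE 0.71), with -1.04 and 0.13 within the replicates. Aplnr and Apela thus were both higher at E7.5 than at E6.5 in GFP- cells, while within E7.5 the receptor gene was higher in GFP+ cells and the ligand gene higher in GFP- cells.

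The other Apela probe set (1442571_PM_at) read 2.79 to 3.33 on all 8 arrays, below 4.38 throughout, and did not pass the filter. Its differences in the 5 comparisons lay between 0.06 and 0.16, each smaller than its SE (0.28 to 0.40). The values for Apela rest on 1 probe set for that reason.

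Markers of other cell types that a GFP- sort can hold are set here beside the Apela values. The 8 epiblast markers, all measured, summed to 54.4 and 51.2 (log2 values added, replicates 1 and 2) in GFP+ cells at E7.5, against 64.1 and 64.3 in GFP- cells at E7.5. None of the 8 had a positive difference between fractions at E7.5, where they ran from -2.85 (Utf1) to -0.03 (Fgf5) with a median of -1.61, against -0.01 over all genes. At least 1 log2 lower within both replicate numbers were 5 of the 8, where 0.555% of all genes were. With limma 0 of the 8 passed an adjusted p of 0.05 (0% of all genes), with 5 at an unadjusted p under 0.05 (2.41% of all genes). The list was chosen with earlier results of these data known, so these counts are a description. At E6.5 the 8 markers summed to 58.3 and 63.2 in GFP+ cells, against 74.9 and 75.9 in GFP- cells, where Apela was at 5.28 and 5.96.

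The 10 visceral endoderm markers, all measured, summed to 51.0 and 48.5 in GFP+ cells at E7.5. In GFP- cells at E7.5 they summed to 48.5 and 62.5, with the higher sum in replicate 2. Much of that rise lay in Spink1, at 3.64 in replicate 1 and 9.41 in replicate 2, and in Apob. Amn was lower in replicate 2 (5.23 and 5.01), and the other markers rose by less. Array medians were also higher in replicate 2. In GFP- cells at E6.5 the 10 markers summed to 63.9 and 83.0, the highest sums of any group, with Apela at 5.28 and 5.96. At E7.5, 3 of the 10 lay below 4.38 in GFP+ cells and 2 in GFP- cells, and the differences between fractions ran from -1.39 (Apob) to -0.18 (Afp).

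Extraembryonic ectoderm markers, 8 of 8 measured, summed to 46.1 and 43.7 in GFP+ cells at E7.5. In GFP- cells at E7.5 they summed to 58.5 and 46.6, with the higher sum in replicate 1. Their differences ran from -2.60 (Rhox5) to 1.93 (Eomes, also on the nascent mesoderm list). Sox2 is on this list and on the epiblast list, so their sums are not separate. In GFP+ cells at E7.5, 3 of the 8 lay below 4.38. Definitive endoderm and node markers, 8 of 9 measured, summed to 56.4 and 55.4 in GFP+ cells at E7.5 and to 57.95 and 57.96 in GFP- cells at E7.5, with differences from -1.17 (Cldn6) to 0.81 (Cer1). Endothelial and blood markers, all 10 measured, summed to 50.4 and 43.6 in GFP+ cells at E7.5, against 54.4 and 52.4 in GFP- cells at E7.5, and the 7 of them that passed the filter had differences from -2.43 (Hbb-bh1) to 0.22 (Kdr). Of the 10 endothelial and blood markers, 6 lay below 4.38 in GFP+ cells at E7.5 and 4 in GFP- cells at E7.5. The part of these cell types in the Apela difference was not tested.

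Apln, the apelin gene, stood above its other values on 1 array. It read 4.42 and 3.78 in GFP+ cells at E7.5, 4.78 and 3.67 in GFP- cells at E7.5, 6.61 and 4.58 in GFP+ cells at E6.5, and 4.55 and 3.69 in GFP- cells at E6.5. Replicate 1 was the higher of the pair in every group. GFP+ cells at E6.5 overlapped with GFP- cells at E7.5, and their lower array (4.58) was just above the higher array of GFP- cells at E6.5 (4.55). Means of 3 groups lay between 4.10 and 4.23, below 4.38.

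The Apln difference between GFP+ and GFP- cells at E6.5 was 1.48 (SE 0.71), with 2.06 and 0.90 within the replicates. It was 0.47 without GFP+ E6.5 replicate 1 and 2.49 without GFP+ E6.5 replicate 2. At E7.5 the fractions differed by -0.12 (SE 0.71), with -0.35 and 0.11 within the replicates, which run in opposite directions. Between E7.5 and E6.5, Apln was at -1.49 (SE 0.71, -2.18 and -0.80 within the replicates) in GFP+ cells, or -0.48 without GFP+ E6.5 replicate 1 and -2.50 without GFP+ E6.5 replicate 2, and at 0.11 (SE 0.71, 0.23 and -0.01 within the replicates) in GFP- cells. Within each replicate number GFP+ cells at E6.5 had more Apln than the other groups, although by an amount that 1 array sets.

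**Figure D2:**
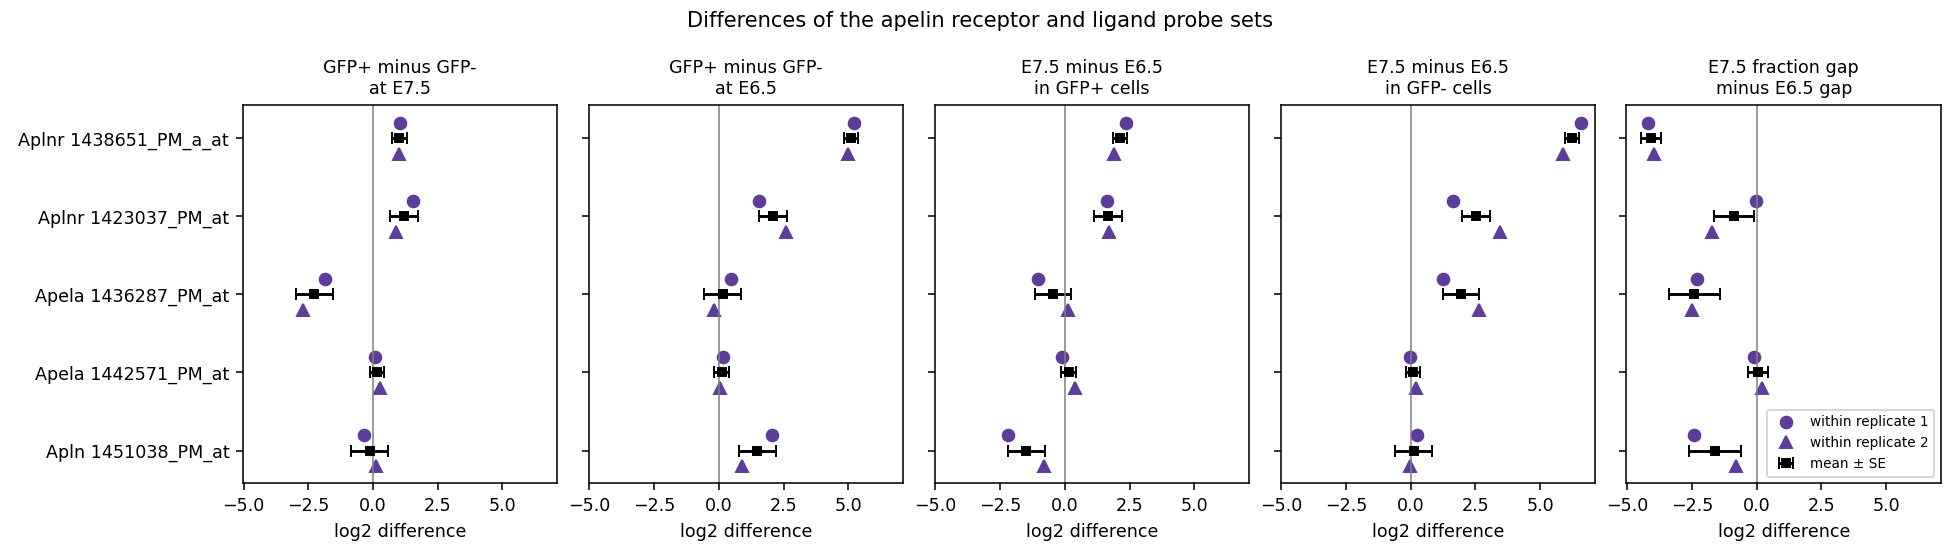
Differences on the log2 scale (x axis) for each probe set (rows) in the 5 comparisons (panels). Squares with bars are the mean difference ± SE, and circles and triangles are the differences within replicates 1 and 2. The Aplnr probe sets lie right of 0 in the first 4 panels, at 1.02 and 1.21 in the first and 5.11 and 2.08 in the second, and Apela 1436287_PM_at lies at -2.26 in the first.

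A difference of at least 1 on the log2 scale in the same direction within both replicate numbers gives a common yardstick, read here as a description because the genes were chosen for such values. For Aplnr and Apela it was first read on the brighter probe set. Of the 3 members, 1 (Aplnr) met it upward and 1 (Apela) downward between fractions at E7.5, where 0.384% and 0.555% of all genes did. At E6.5, 1 (Aplnr) met it upward, as did 1.38% of all genes. Between the stages, 1 (Aplnr) met it upward in GFP+ cells and 2 (Aplnr and Apela) in GFP- cells, where 1.58% and 1.9% of all genes did. For the difference of differences, 2 (Aplnr and Apela) met it downward, as did 1.62% of all genes. Aplnr at E7.5 was just inside the limit, at 1.03 and 1.01, and Apln, which met it nowhere, came nearest in GFP+ cells at E6.5 with 0.90 in its lower replicate. The second Aplnr probe set met the yardstick at E6.5 and between stages in both fractions, but not at E7.5 (1.56 and 0.87). It did not meet it for the difference of differences either (-0.01 and -1.74). The other Apela probe set met it nowhere.

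The genes closest to Aplnr in pattern were Hoxb1, Dll3, Meis2, Ifitm1 and Tbx6. Closeness was the root mean square difference over the 8 arrays after each gene was centred within each replicate number. The likeness in group order described below for each member follows in large part from this choice. The nearest was the homeobox gene Hoxb1 (0.733 on the log2 scale), followed by the Notch ligand gene Dll3 (1.03), the Hox cofactor gene Meis2 (1.06), Ifitm1, an interferon-induced membrane protein gene of early mesoderm (1.06), and Tbx6 (1.29). For scale, the median over the 11705 other genes was 2.81, Mesp1 was at 1.95, and the second Aplnr probe set was at 1.57, farther off than these 5 genes.

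Hoxb1 had the same order of groups as Aplnr, with no overlap between arrays of different groups. It read 9.80 and 10.14 in GFP+ cells at E7.5, 9.58 and 9.70 in GFP- cells at E7.5, 6.98 and 6.72 in GFP+ cells at E6.5, and 3.24 and 3.80 in GFP- cells at E6.5. Its difference between the stages in GFP- cells was 6.11 (SE 0.32), beside 6.23 for Aplnr. At E6.5 its difference between fractions was smaller, 3.33 (SE 0.32) beside 5.11.

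Dll3, Meis2, Ifitm1 and Tbx6 were also highest in GFP+ cells at E7.5 and lowest in GFP- cells at E6.5. Their differences between fractions were 0.45 to 1.20 at E7.5 and 2.54 to 3.81 at E6.5, and those between stages in GFP- cells were 3.20 to 4.12. At E6.5 and between stages in GFP- cells all 4 were smaller than those of Aplnr, while at E7.5 Dll3 (1.20) and Tbx6 (1.15) were above its 1.02. Dll3 differed from Aplnr in the middle of the order, with means of 8.50 in GFP- cells at E7.5 and 8.63 in GFP+ cells at E6.5. Means of Hoxb1 (3.52), Meis2 (4.10) and Tbx6 (3.92) lay below 4.38 in GFP- cells at E6.5, as that of the brighter Aplnr probe set did. Ranked by Pearson correlation of the same centred values over the 8 arrays, which ignores the size of a change, the 5 nearest genes were Prtg, Hmga2, Rpl9, Rbms1 and Zeb2 (r from 0.989 to 0.998), and 0 of the first 5 were among them.

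**Figure D3:**
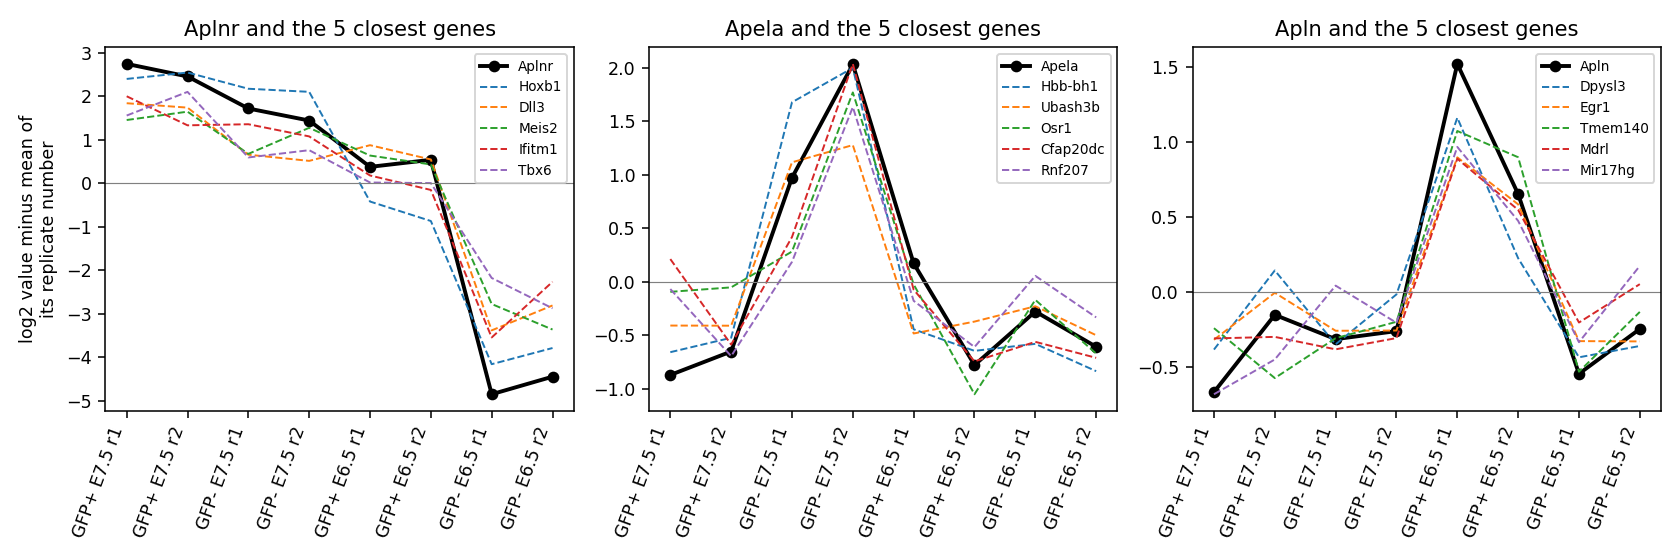
Log2 values minus the mean of the same replicate number (y axis) on the 8 arrays (x axis; r1 and r2 are replicates 1 and 2) for each member (black) and its 5 closest genes (dashed). Lines only join the points of a gene. Aplnr and its 5 genes are lowest in GFP- cells at E6.5, Apela and its genes highest in GFP- cells at E7.5, and Apln and its genes highest in GFP+ cells at E6.5 replicate 1.

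For Apela the closest genes were Hbb-bh1, an embryonic globin gene (0.371), Ubash3b, a phosphatase gene (0.429), Osr1, a transcription factor gene of intermediate and lateral mesoderm (0.452), Cfap20dc (0.452) and Rnf207 (0.469). Hbb-bh1 read 3.11 and 3.47 in GFP+ cells at E7.5 and 5.45 and 5.99 in GFP- cells at E7.5, and it lay at 3.16 to 3.35 at E6.5. In GFP- cells at E7.5, Osr1, Cfap20dc and Rnf207 read 4.28, 4.92 and 3.86 in replicate 1. In replicate 2 they read 6.86, 7.44 and 7.04, so their match rests mainly on that array. All 5 had their highest mean in GFP- cells at E7.5, where Apela had its own, which follows from how they were chosen. Hbb-bh1 and Ubash3b passed the filter only through the GFP- E7.5 arrays, and their means in every other group lay below 4.38. At least 1 group mean of Osr1, Cfap20dc and Rnf207 each also lay below it. By correlation none of the 5 was named again, and the set changed to Cep43, Loxl4, Adh7, Bphl and Cd44.

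For Apln the closest genes were Dpysl3 (0.265), Egr1, an immediate early gene (0.272), Tmem140 (0.281), Mdrl (0.310) and Mir17hg (0.311). Group means spanned 1.49 for Apln and 2.26 for Apela, against 7.25 for Aplnr. Smaller values for Apln and Apela than for Aplnr therefore do not mean a closer match. Means of Mdrl lay below 4.38 in all groups but GFP+ cells at E6.5, and that of Mir17hg in GFP+ cells at E7.5. Egr1 read 10.95 and 9.81 in GFP+ cells at E6.5, against 9.73 and 8.90 in GFP- cells at E6.5. Its lower replicate was replicate 2 in every group, as for Apln. By correlation 1 of the 5, Egr1, was named again.

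No listed gene of the steps by which apelin peptides are processed, cleared and sensed inside the cell passed the test. At most 0.094% of all genes passed it in any comparison, so the count says little about the pathway. Of 53 listed symbols, some of them older names of the same gene, 44 had a probe set of their own and 34 passed the filter. With limma, 0 of the 34 passed an adjusted p of 0.05 in any of the 5 comparisons, where 0.0769% of all 11706 genes passed for the fractions at E6.5, 0% at E7.5, 0.0256% and 0.094% between stages in GFP+ and GFP- cells, and 0% for the difference of differences. At an unadjusted p under 0.05 there were 1, 1, 0, 3 and 1 of the 34, where 5.73%, 2.41%, 3.85%, 6.48% and 2.71% of all genes were past it. The median of the 34 genes was -0.01 at E6.5 and -0.07 at E7.5 between fractions, against 0.01 and -0.01 over all genes.

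The receptor couples to inhibitory G proteins, whose alpha subunits the Gnai genes encode. Gnai1 was at 0.69 and 0.53 between fractions at E7.5 and E6.5, Gnai2 at -0.09 and -0.17, and Gnai3 at 0.91 and 0.49, where the E7.5 value was 0.23 and 1.58 within the replicates. Gnao1 was the 1 subunit gene that lay on 1 side of 0 in both replicates at E7.5 and on the other side in both at E6.5, with -0.86 (SE 0.34, limma adjusted p = 1) at E7.5 and 0.79 (SE 0.34, limma adjusted p = 0.884) at E6.5. The arrestin genes Arrb1 and Arrb2, which end signalling and carry receptors inside the cell, lay between -0.32 and -0.01 in both comparisons.

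Furin, which encodes a protease that cuts propeptides, was at -0.14 at E7.5 and -0.32 at E6.5 between fractions. Pcsk5, a related protease gene, was at -0.77 (SE 0.87) at E7.5, with -1.76 and 0.21 within the replicates. Mme, the gene of neprilysin, a peptidase that degrades apelin, was at -0.82 (SE 0.53, limma adjusted p = 1) at E6.5, with -1.34 and -0.30 within the replicates. Agtrap, which encodes a partner of the angiotensin receptor, a relative of the apelin receptor, had the largest difference of the list at E6.5, 1.18 (SE 0.38, limma adjusted p = 0.568; 1.60 and 0.76 within the replicates), and was at 1.14 (SE 0.38, limma adjusted p = 0.59) between the stages in GFP- cells.

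Of genes further along, Akt1, a kinase gene, was at 0.99 (SE 0.40, limma adjusted p = 0.723) between the stages in GFP- cells, with 1.47 and 0.52 within the replicates. Klf4, a transcription factor gene, was at 1.64 (SE 0.82, limma adjusted p = 1) between the stages in GFP+ cells, with 1.63 and 1.66 within the replicates. Klf2, known as a target of apelin signals in endothelium, was at -0.59 at E7.5 and -0.13 at E6.5 between fractions. None of these values passed the test, as was so for nearly all genes.

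**Figure D4:**
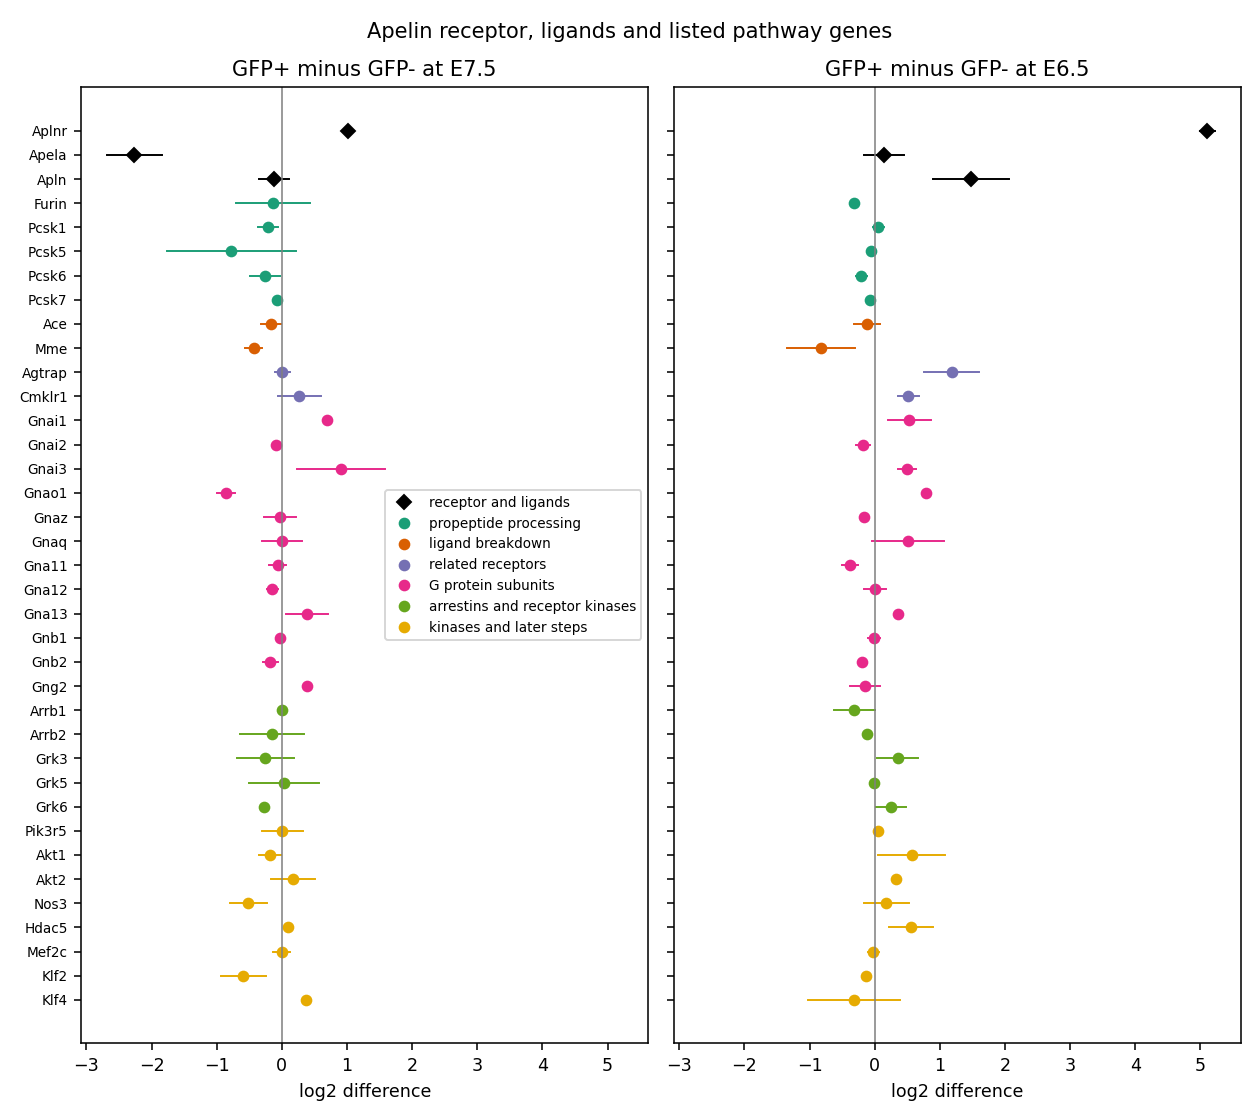
Differences between GFP+ and GFP- cells on the log2 scale (x axis) at E7.5 (left) and E6.5 (right) for Aplnr, Apela and Apln (diamonds) and the 34 pathway genes that passed the filter (circles, coloured by role). Horizontal lines span the differences within replicates 1 and 2. At E6.5 the pathway genes lie between -0.82 and 1.18 and Aplnr at 5.11.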

How the data were processed

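Gene expression was measured on 8 Affymetrix mouse perfect-match arrays, 2 for each of 4 groups. The deposited table held RMA output of the authors on the log2 scale, 1 value per probe set and array, per the submitters' processing notes. Neither the version of RMA nor a genome build is given in the sources used here. Per the labels' protocols, RNA of 50 sorted cells was amplified before labelling. The labels call the replicates biological. SEs and p-values measure the spread between these arrays. With no block in the fit, that spread includes the offset between replicate numbers described below.

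Of 45141 probe sets, 104 were controls, and 28898 carried a single symbol, 551 more than 1 and 15588 none. The filter asked for values over 4.38 on at least 2 of 8 arrays. For a gene with several probe sets the brightest on average was taken, leaving 11706 genes. Differences were fitted with limma 3.58.1 in R 4.3.3 on the 8 arrays together (group means, no block), and p-values were Benjamini-Hochberg adjusted over all 11706 genes. SEs of the members came from the same model over all 28898 probe sets with 1 symbol. The code was tested on simulated data. Alternatives were the replicate number as a block, no filter, the mean of probe sets, joint quantile normalization, the 4 arrays compared, and leaving out each array.

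As a check of pairing, deviations from the group means were correlated across genes, which are not independent replicates. In the 6 pairs of groups, same-numbered arrays gave r between 0.401 and 0.532. With 2 arrays a group this shows an offset shared by same-numbered arrays, and whether they also shared embryos cannot be told from it.

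The members and lists were chosen with earlier results of these data known. Named genes were the members, the 5 genes closest to each member in pattern, Mesp1, of the pathway and receptor lists the genes that passed the test and the 3 with the largest difference in each comparison of 2 groups, and of each marker list set beside a member the top and bottom genes between fractions. The genes of inhibitory G proteins and arrestins, Furin and Klf2, named for their role, and Snai1 were chosen after their values were seen.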

Additional observations from a re-analysis of the deposited data

Results flagged for a closer look

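Among the named genes of the receptor's pathway and of other G protein-coupled receptors, 6 had differences of opposite sign in the 2 stages or the 2 fractions, the same way in both replicates of each. The pattern was common: of the 49 members and listed genes that passed the filter 8 met it (16.3%), the 6 named and 2 that the naming rule left out, and of all 11706 genes 2204 did (18.8%). Limma's test of the difference of differences, which took in these genes, called 0 of 11706 genes at an adjusted p of 0.05, with 317 at an unadjusted p under 0.05. Gnao1, a G protein subunit gene, was at -0.86 between fractions at E7.5 and 0.79 at E6.5, a change of -1.65; between stages it gave -0.71 for GFP+ against 0.94 for GFP- cells, 1.65 apart. S1pr2, a receptor gene for sphingosine 1-phosphate, was at 0.82 at E7.5 and -1.33 at E6.5, a change of 2.15. Lgr4, a receptor gene for R-spondins, was at 0.44 at E7.5 and -2.10 at E6.5, a change of 2.54. Lpar4, a receptor gene for lysophosphatidic acid, was at -1.06 at E7.5 and 0.23 at E6.5, a change of -1.29, and between stages it gave -1.08 for GFP+ against 0.21 for GFP- cells, 1.29 apart. S1pr5 gave -0.41 for GFP+ against 0.77 for GFP- cells between stages, 1.18 apart. Akt1 was at -0.18 at E7.5 and 0.57 at E6.5, a change of -0.75, and in 1 replicate of each stage it lay within 0.05 of 0.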

How the results depend on the processing

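The number of genes called depended on the processing. For the fractions at E6.5 it was 9, against 30 with the replicate block, 16 with joint quantile normalization, 0 with the 4 arrays alone and 0 to 1 without 1 array (0 without any E6.5 array, 1 without any E7.5 array). Between stages it was 3 in GFP+ cells, against 0 with no filter or with the 4 arrays alone and 0 to 3 without 1 array (0 without any array other than those of GFP- cells at E6.5), and 11 in GFP- cells, against 39 with the replicate block, 26 with joint quantile normalization, 17 with the mean of probe sets, 4 with the 4 arrays alone and 3 to 10 without 1 array (3 without GFP- E7.5 replicate 2, 3 also without GFP- E6.5 replicate 1, 4 without GFP- E6.5 replicate 2, 6 without either GFP+ E6.5 array, 7 without GFP- E7.5 replicate 1). The count of pathway genes was 0 in all 5 comparisons and all alternatives. So few genes were called at all that the pathway count says little about the pathway. The block cannot move the differences of the members, since each number holds 1 array of every group. It can change their SEs, which are given here without it.

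For Aplnr the choice of probe set mattered most: the mean of its probe sets gave 3.60 at E6.5, 1.90 and 4.38 between stages in GFP+ and GFP- cells and -2.48 for the difference of differences, and the other probe set gave 2.08, 1.66, 2.54 and -0.87. For Apela the mean gave -1.05 at E7.5 and -1.17 for the difference of differences, and the probe set below the filter value gave 0.16 and 0.056, and 0.092 between stages in GFP- cells. Without 1 array the difference of differences was -3.44 to -1.36 for Apela and -2.61 to -0.59 for Apln. Of the other values of the members under alternatives, 105 moved by less than 1 SD between replicates. That count does not measure stability. The block cannot move these values, and leaving out 1 of 2 arrays cannot move a difference of 2 groups by more than that SD. The cause of the differences between probe sets and between arrays was not tested.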

Other observations

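Of 20 listed symbols of other G protein-coupled receptors, most of them known in cell migration, 15 had a probe set of their own and 12 passed the filter. With limma 0 of the 12 passed an adjusted p of 0.05 in any comparison, and 2 and 0 did at an unadjusted p under 0.05 between fractions at E6.5 and at E7.5, 3 and 4 between stages in GFP+ and GFP- cells, and 2 for the difference of differences, where 5.73%, 2.41%, 3.85%, 6.48% and 2.71% of all genes did. This list too was chosen with earlier results of these data known, so these counts are a description. The median difference of the 12 genes between stages was 0.32 in GFP+ and 0.63 in GFP- cells, against -0.03 and -0.01 over all genes. Between the stages in GFP- cells, where Aplnr was at 6.23, Lgr5, a receptor gene for R-spondins, was at 2.64 (SE 0.57, limma adjusted p = 0.236, 2.64 and 2.65 within the replicates) and F2r, the thrombin receptor gene, at 1.80 (SE 0.35, limma adjusted p = 0.174). Lgr4 was at -2.54 (SE 0.65, limma adjusted p = 0.361). In GFP+ cells S1pr2 was at 2.56 (SE 0.58, limma adjusted p = 0.499), Lgr5 at 2.27 (SE 0.57, limma adjusted p = 0.603) and F2r at 1.43 (SE 0.35, limma adjusted p = 0.554). The E6.5 means of Lgr5 (GFP+ cells 2.64, GFP- cells 2.82) and the GFP+ E6.5 mean of S1pr2 (4.01) lay below 4.38. Between fractions the largest differences of these receptors at E7.5 were in Lpar4 (-1.06, SE 0.50), S1pr2 (0.82, SE 0.58) and S1pr3 (0.81, SE 0.79), and at E6.5 in Lgr4 (-2.10, SE 0.65), S1pr5 (1.46, SE 0.57) and S1pr2 (-1.33, SE 0.58).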
